A study of Mus musculus with 19 samples.

Results

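The wide 5-hmC domains described here are stretches of the mouse genome where a 5-hydroxymethylcytosine (5-hmC) peak reached 4 kb or more in purified cardiomyocytes (CMCs). They were chosen on measured width: every autosomal peak whose end lay at least 4000 bp beyond its start was taken from each of 8 peak lists, and overlapping or touching ones were joined over the lists. This gave 2878 wide peaks among 989991 autosomal peaks, and the 2878 joined into 1818 domains among 397412 merged autosomal peak regions. The domains held 10.5 Mb, or 0.439% of the known autosomal bases. Because width chose them, widths and counts of wide peaks are given as a description with no test.

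The CMCs came from male mice with no genetic alteration named, and the study gives the strain, C57Bl6/J, in its account of the surgery. There were 4 points: the mid-gestation embryo (E14.5), the newborn at 1 to 2 days (Neonatal), the adult at 2 months (Adult), and the adult 1 week after transverse aortic constriction (TAC). This operation narrows the aorta and loads the left ventricle with pressure. Each point had 2 biological replicates, and the Adult point is the comparison for TAC. The study also describes a sham-operated group, and whether the Adult libraries came from it is not stated. Adult and TAC cells were obtained by perfusing the heart with enzyme and letting the CMCs settle, whereas E14.5 and Neonatal ventricles were digested and rid of attaching cells by preplating, so age and isolation method cannot be told apart between the younger and the older points. Purity had been judged by staining for sarcomeric actinin, and peak lists hold no transcript by which the cell type could be checked.

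5-hmC is made from 5-methylcytosine by the TET dioxygenases, is an intermediate on one route of DNA demethylation and is stable enough to be found in the bodies of transcribed genes and at enhancers, and its level differs widely between tissues, with neurons known for a high one. In hMeDIP-seq an antibody pulls down sonicated DNA fragments with 5-hmC, and the HOMER peak finder in its histone mode joins neighbouring enriched positions into one peak of variable width. A wide peak therefore stands for a long stretch of nearly unbroken enrichment over input, and it does not say how many cytosines in it are modified. In bulk DNA, the mark in more of the cells and more of the mark per cell cannot be told apart.

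The central 300 bp of 5 domains are printed to show the kind of sequence under them, from sparse to dense in CpG: the pair that was wide in the most lists, one that gained cover from E14.5 to Neonatal, one that gained cover from Neonatal to Adult and one that lost it over that step. Sequences are from mm10, plus strand, lower case, with each CpG in capitals. The Ski window is intronic and has 3 CpGs, the Myh7b window is exonic with 19, the Ttn window is exonic with 7, the Plec window is intronic with 8 and the Ago2 window is intronic with 5.
Ski domain 4, chr4:155212069-155212368: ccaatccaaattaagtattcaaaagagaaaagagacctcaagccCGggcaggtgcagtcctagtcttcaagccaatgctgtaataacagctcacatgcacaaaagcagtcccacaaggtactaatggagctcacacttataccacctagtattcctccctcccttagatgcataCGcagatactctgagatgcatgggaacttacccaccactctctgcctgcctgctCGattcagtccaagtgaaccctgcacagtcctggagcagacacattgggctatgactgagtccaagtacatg
Myh7b domain 2, chr2:155630983-155631282: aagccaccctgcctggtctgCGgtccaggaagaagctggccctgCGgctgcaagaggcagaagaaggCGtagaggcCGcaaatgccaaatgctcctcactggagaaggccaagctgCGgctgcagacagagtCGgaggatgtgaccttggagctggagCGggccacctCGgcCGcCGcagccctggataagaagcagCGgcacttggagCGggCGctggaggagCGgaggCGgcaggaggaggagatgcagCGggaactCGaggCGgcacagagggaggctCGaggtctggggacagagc
Ttn domain 4, chr2:76744264-76744563: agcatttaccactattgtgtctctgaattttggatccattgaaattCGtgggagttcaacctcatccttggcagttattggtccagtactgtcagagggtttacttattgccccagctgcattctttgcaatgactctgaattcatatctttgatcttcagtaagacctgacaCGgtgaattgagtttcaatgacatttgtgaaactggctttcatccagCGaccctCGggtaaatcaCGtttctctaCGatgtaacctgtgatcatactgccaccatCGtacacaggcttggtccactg
Plec domain 1, chr15:76182123-76182422: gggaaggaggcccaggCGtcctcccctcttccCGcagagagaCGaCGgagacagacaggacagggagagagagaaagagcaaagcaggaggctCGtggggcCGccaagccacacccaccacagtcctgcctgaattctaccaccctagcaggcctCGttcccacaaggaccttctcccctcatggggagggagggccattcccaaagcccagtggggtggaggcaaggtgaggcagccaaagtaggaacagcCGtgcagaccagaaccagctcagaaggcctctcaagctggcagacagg
Ago2 domain 2, chr15:73170770-73171069: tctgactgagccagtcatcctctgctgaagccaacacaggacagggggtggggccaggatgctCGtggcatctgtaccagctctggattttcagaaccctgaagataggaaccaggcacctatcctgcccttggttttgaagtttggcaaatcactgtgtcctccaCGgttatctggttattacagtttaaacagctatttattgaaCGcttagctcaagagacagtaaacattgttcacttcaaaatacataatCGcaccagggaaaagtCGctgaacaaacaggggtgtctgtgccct
The autosomes hold 0.851 CpGs per 100 bp, which is fewer than 3 in 300 bp, so all 5 windows lie above that average and the Ski window is nearest to it. The Myh7b window lay wholly in a peak in all 8 lists. The Ski window lay wholly in a peak in every list but that of E14.5 replicate 2. The Plec window was in a peak in both Adult lists, Neonatal replicate 2 and TAC replicate 1. The Ttn window was wholly in a peak in Neonatal replicate 1 and Adult replicate 1 alone, with 291 of its 300 bp in a peak in TAC replicate 2, and thus a window inside a domain can be outside the peaks of a list in which that domain is wide.

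Wide peaks were few at E14.5, most frequent in the Neonatal and Adult lists, and almost missing from one of the TAC lists. E14.5 replicates 1 and 2 had 148 and 129. Neonatal replicates had 378 and 864, and Adult replicates 342 and 757. TAC replicates had 252 and 8. The Neonatal and Adult ranges overlap with one another, both lie above E14.5, and TAC replicate 2 stands apart from every other list. As means this is 138.5 ± 13.4 at E14.5, 621 ± 344 at Neonatal, 549.5 ± 293 at Adult and 130 ± 173 at TAC (SD, n = 2 each), so that the spread between replicates is large at every point but E14.5.

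Wide peaks were a small fraction of each list but a larger fraction of its base pairs. They were between 0.00747% of the autosomal peaks in TAC replicate 2 and 0.627% in Adult replicate 2, and held from 0.0599% to 4.15% of the peak base pairs in those same lists. The lists were otherwise of like size, with 103752 to 151247 autosomal peaks. Their median widths were between 4468.5 and 4929.5 bp and the widest single peak, of 22622 bp, was in Adult replicate 2. Peaks of 10 kb or more numbered 0 in both E14.5 lists, 2 and 15 in the Neonatal lists, 1 and 11 in the Adult lists, and 2 and 0 in the TAC lists. At the threshold the narrowest wide peak of each list was 4000 to 4036 bp and the widest peak left out was 3943 to 3999 bp, so there is no gap in width at 4 kb. HOMER scales one of precipitate and input down to the size of the other, and per the file headers it was the precipitate in both TAC lists and in replicate 2 of Neonatal and Adult, and the input in the other 4. Where the direction differed between replicates, the list with the scaled precipitate had more wide peaks (864 against 378 at Neonatal and 757 against 342 at Adult), and both TAC lists, with 252 and 8, had it too. Its part in the counts was not tested. Read depth is unknown from these lists.

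**Figure D1:**
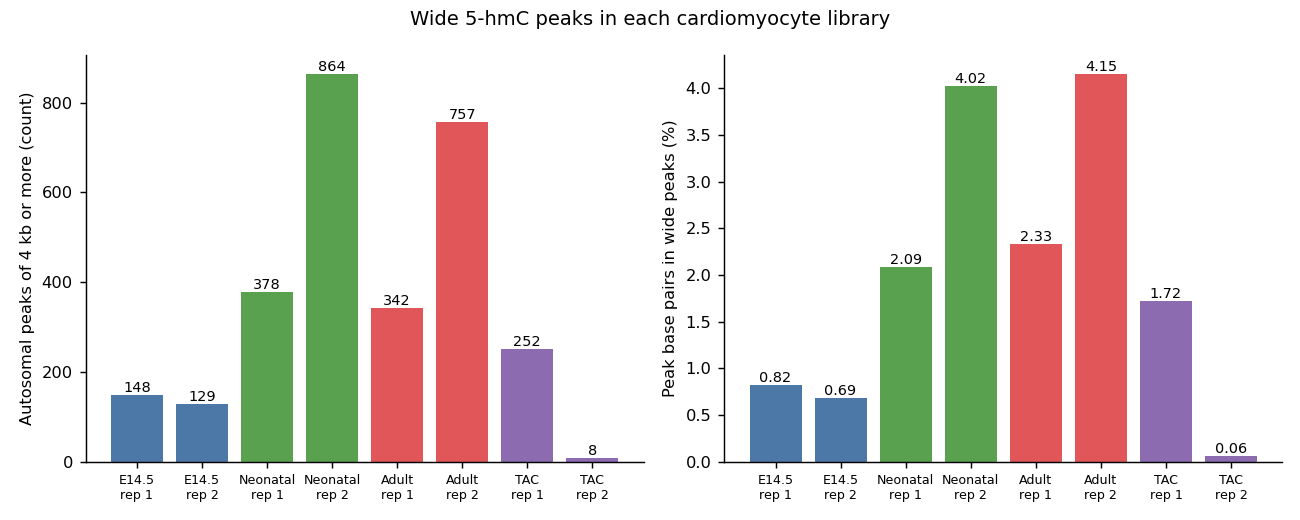
Number of autosomal 5-hmC peaks of 4 kb or more (left axis, count) and their percentage of all autosomal peak base pairs (right panel) in each of the 8 CMC libraries, 1 bar per library, coloured by point. The E14.5 bars stand at 148 and 129, replicate 2 is above replicate 1 at Neonatal (864 against 378) and Adult (757 against 342), and TAC replicate 2 has 8.

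Wide peaks lay much more often inside protein-coding genes than the other peaks of the same list. In gene bodies lay 85.5% and 81.0% of the wide-peak base pairs of the E14.5 replicates, 90.5% and 86.3% at Neonatal, 92.3% and 90.7% at Adult, and 93.3% and 72.1% at TAC. Of the base pairs of the other peaks, the matching values were 55.9% and 51.3%, 58.8% and 57.4%, 68.7% and 67.7%, and 67.3% and 54.6%. The wide peaks were higher in all 8 lists, by 26.2 ± 4.70 percentage points (mean ± SD, n = 8 lists; adjusted p = 0.0137, exact two-sided permutation test over sign flips). Against other peaks of 1000 bp or more the difference was 14.3 points (adjusted p = 0.0182, exact permutation test). Genes cover 37.9% of the autosomes. The first adjusted p is the smallest reached over the 7 features compared, and the 8 lists share regions, so their differences are not fully independent. How many mice made up a replicate is not given in the sources used here, and the p-values measure the spread between these samples.

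The sequence of wide peaks was richer in GC, poorer in repeats and for the most part denser in CpG. GC content was 50.4 ± 1.46% in wide and 47.7 ± 1.27% in other peaks, higher in all 8 lists by 2.66 ± 0.423 points (adjusted p = 0.0137, exact permutation test). Repeat-masked bases made up 17.3 ± 2.99% of wide and 24.8 ± 4.11% of other peaks, lower in all 8 lists (adjusted p = 0.0137, exact permutation test), where the autosomes stand at 33.5%. CpG density was 1.72 ± 0.356 per 100 bp in wide and 1.42 ± 0.176 in other peaks (adjusted p = 0.0182, exact permutation test). The CpG difference was positive in 7 of the 8 lists, and TAC replicate 2 had 0.875 in its 8 wide peaks against 1.08 in its other peaks. Set against other peaks of 1000 bp or more, the differences shrank to 1.38 points for GC and -3.40 points for repeat-masked bases, both past the threshold (adjusted p = 0.0273 and 0.0182, exact permutation test), and to 0.105 for CpG, which missed it (adjusted p = 0.264).

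Wide peaks had fewer bases near gene starts, and inside genes they lay toward the upstream part, though hardly so at Adult and in TAC replicate 1. Base pairs within 1 kb of a transcription start site (TSS) were 1.48 ± 0.680% of wide and 2.75 ± 0.199% of other peaks, lower in all 8 lists (adjusted p = 0.0137, exact permutation test), and the autosomes have 1.77%. Of their genic base pairs, 40.7 ± 6.59% lay in the downstream 50% of the gene's length, against 47.0 ± 1.04% in other peaks, lower in 7 of 8 lists (adjusted p = 0.0182, exact permutation test). The difference was -5.78 and -14.5 points at E14.5, -6.34 and -6.32 at Neonatal, -1.28 and 0.918 at Adult, and -0.970 and -16.0 at TAC. The last value rests on 8 wide peaks. This feature too missed the threshold against peaks of 1000 bp or more, at a difference of -4.22 points (adjusted p = 0.0875, exact permutation test). Exonic base pairs made up 7.88 ± 3.89% of wide and 5.54 ± 1.48% of other peaks, higher in 7 of 8 lists by 2.34 ± 2.74 points, which did not pass (adjusted p = 0.0625, exact permutation test). The exception was again TAC replicate 2, with 0.283% of wide-peak bases in exons. Without it the difference was 3.20 points with an adjusted p of 0.0182 in the exact permutation test, and against other peaks of 1000 bp or more, with all lists, it was 0.654 with an adjusted p of 0.508. Across the 4 points none of the 7 features of wide peaks differed by more than between replicates (adjusted p from 0.8 to 0.876, exact one-sided permutation test over the 105 divisions of the lists into 4 pairs, smallest unadjusted p possible 0.00952). Adult replicate 2 had the most exonic wide peaks, 13.2%, and E14.5 replicate 2 the most repeat-masked ones, 24.3%.

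**Figure D2:**
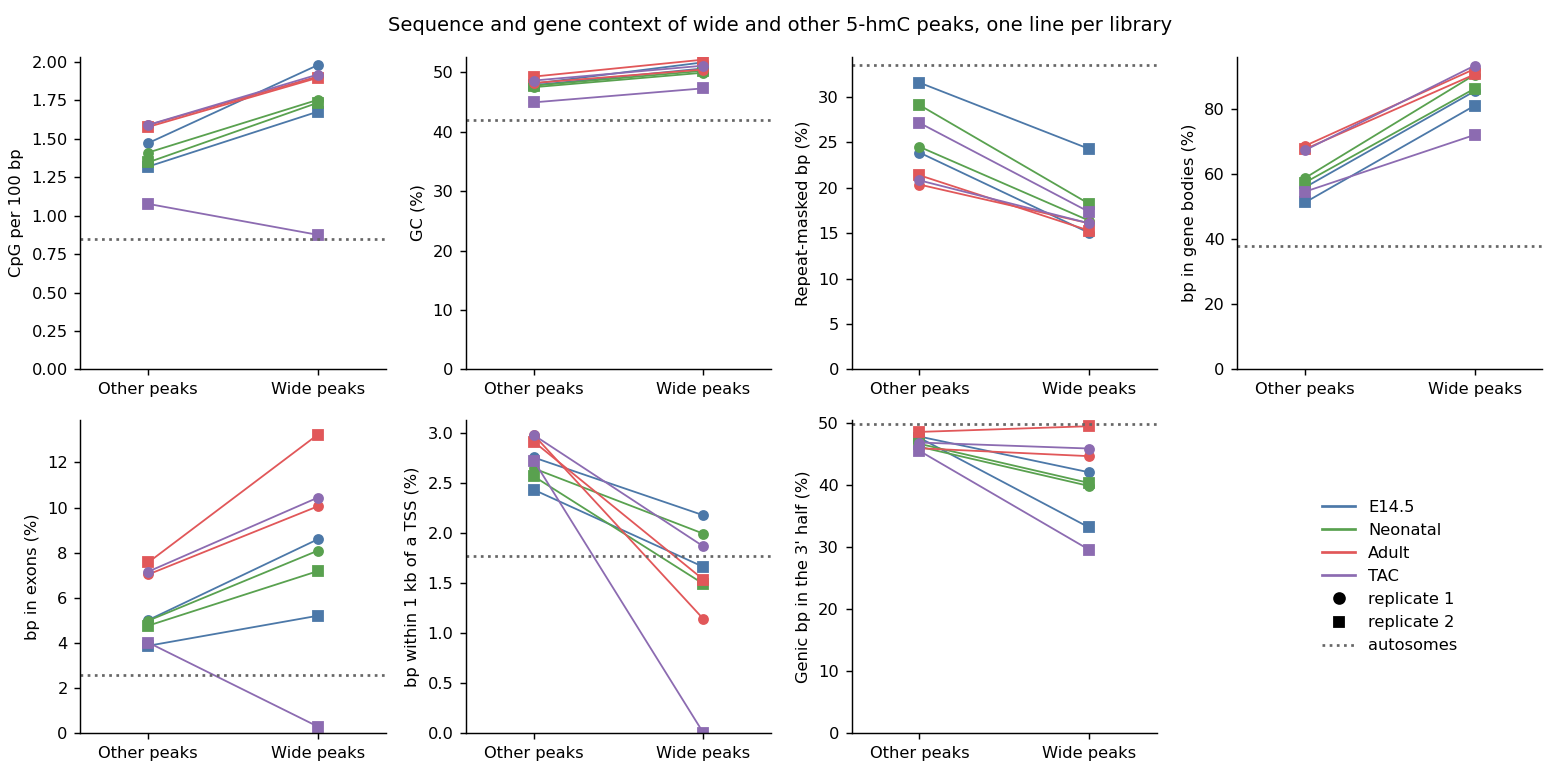
Each panel gives, for one sequence or gene feature (y axis, CpGs per 100 bp or % of base pairs), the value in other peaks and in wide peaks of the same library, joined by a line coloured by point, with circles for replicate 1 and squares for replicate 2 and the autosomal value dotted. All 8 lines rise for GC and gene bodies and fall for repeat-masked bases and TSS neighbourhoods, and the TAC replicate 2 line falls for CpG and exons where the other 7 rise.

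Stretches that were wide in one replicate were covered by peaks of the other to a larger part than other peaks were. Of the base pairs of the wide peaks of E14.5 replicates 1 and 2, 53.8% and 58.8% were inside peaks of the other replicate, against 36.6% and 34.3% for their other peaks. The values were 77.8% and 61.5% at Neonatal (43.4% and 35.1% for other peaks), 68.3% and 52.2% at Adult (37.7% and 29.2%), and 24.5% and 43.9% at TAC (9.82% and 11.6%). The wide peaks were higher in 8 of 8 lists, by 25.4 ± 7.04 percentage points, a description since the replicates form 4 pairs. Set against other peaks of 1000 bp or more the gap was 14.2 points.

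Over the whole set, every domain held a peak of some width in at least 3 lists. By an overlap of 1 bp, a peak lay in all 8 lists in 1169 of the 1818 domains (64.3%), beside 1.67% of all merged regions, which are mostly far narrower. Where 50% of the domain had to be covered in every list, 9 domains were left. In the lists in which a domain was not wide, its bases were still 38.1% and 32.9% in peaks at E14.5, 43.7% and 45.6% at Neonatal, 40.9% and 47.2% at Adult, and 40.9% and 21.8% at TAC. At 20 to 21 kb outside the domains the cover was between 10.03% in TAC replicate 2 and 23.2% in Adult replicate 2, and over the autosomes 2.71% to 4.89%. Domains thus lay in neighbourhoods with several times the autosomal cover, and stood above those neighbourhoods in each list. Their flanks of equal width had 1.57 CpGs per 100 bp against 1.75 in the domains, 81.2% against 88.2% of bases in genes, and 5.15% against 1.63% within 1 kb of a TSS.

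Few domains were wide repeatedly. A wide peak was found in 1 list for 1208 domains (66.4%), in 2 for 375, in 3 for 141, in 4 for 46, in 5 for 32, in 6 for 14, in 7 for 2 and in all 8 for 0. The domains wide in 7 lists were Ski domain 4 and Myh7b domain 2. Ski encodes a repressor of SMAD signalling, and its domain at chr4:155204272-155220166 (mm10) had 10404 and 11667 bp in peaks at E14.5, 11123 and 13276 at Neonatal, 8940 and 12989 at Adult, and 14180 and 5059 at TAC. Its values overlap between all points. Myh7b encodes a muscle myosin heavy chain, and its domain at chr2:155625599-155636667 crosses 23 exons and reaches the neighbouring Trpc4ap. It had 5829 and 5077 bp at E14.5, 9548 and 10549 at Neonatal, 6842 and 9541 at Adult, and 9767 and 3295 at TAC. Both E14.5 values lie below both Neonatal and both Adult values there.

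The widest domain lay in Cdc42bpb, which encodes a kinase acting downstream of the small GTPase Cdc42, at chr12:111345236-111371972 over 26737 bp. It was wide in 6 lists, with 12510 and 16744 bp in peaks at E14.5, 17868 and 23634 at Neonatal, 18826 and 21596 at Adult, and 17622 and 12037 at TAC. Of the 14 domains wide in 6 lists, the next by width were a domain of 21323 bp in Pxn, the gene of the focal adhesion adapter paxillin, with 9757 to 19493 bp in peaks in the lists other than TAC replicate 2, which had 6236, and a domain of 17108 bp in Mtss1, whose product bends membranes and binds actin. Among the 10 widest were also domains across Tmem94 and Caskin2 (22760 bp), Gramd4 (22594 bp), Ttn (20892 bp), Plec (20491 bp), Gse1 (18227 bp), Casz1 (17433 bp) and Rcan1 (17391 bp). Exon content varied among them from 47 exons in the Tmem94 and Caskin2 domain to none in that of Gramd4.

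Per point, 28 domains were wide in both replicates at E14.5, 206 at Neonatal, 139 at Adult and 0 at TAC. A wide peak in 1 replicate alone was found for 217, 804, 802 and 254 domains in the same order. Of the 28 of E14.5, 11 were wide in both Neonatal replicates and 14 in one, and the other 3 held narrower peaks in both. Of the 206 of Neonatal, 43 were wide in both Adult replicates and 52 in one, 98 held narrower peaks in both, 12 in one and 1 held none. Of the 139 of Adult, 44 were wide in one TAC replicate, 91 held narrower peaks in both and 4 in one. By an overlap of 1 bp, loss of width was seldom loss of every peak. Such an overlap is easily met over 4 kb or more. No share for other stretches of like width is given, so this is no result about the domains. Wide in both replicates at E14.5, Neonatal and Adult were 4 domains, in Ski, Myh7b, Mtss1 and Sec14l1, the last at chr11:117116507-117126218. Wide in both replicates of 1 point and in no list of another point were 3 domains at E14.5, 86 at Neonatal and 42 at Adult.

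**Figure D3:**
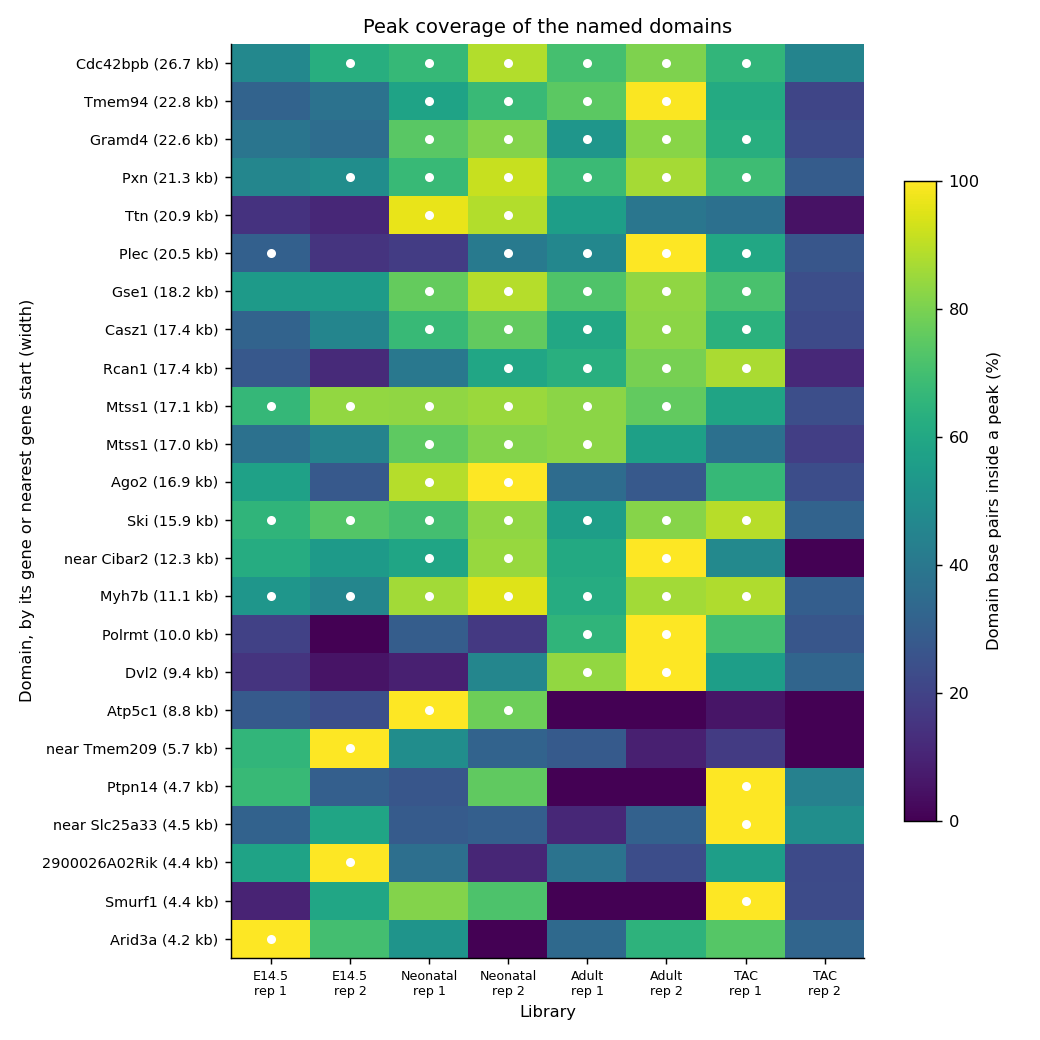
Percentage of each named domain's base pairs inside a 5-hmC peak (colour scale, 0 to 100%) in the 8 libraries (x axis), with domains ordered by width (y axis), and a white point where the list held a wide peak. Ski and Myh7b carry a point in 7 libraries, Ttn and Ago2 in both Neonatal libraries, and the TAC replicate 2 column has no point.

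Over the 4 points the domains gained cover from E14.5 to Neonatal. The base pairs of domains in peaks were 4.42 and 3.88 Mb at E14.5, 5.71 and 7.28 Mb at Neonatal, 5.33 and 7.01 Mb at Adult, and 5.03 and 2.33 Mb at TAC. Covered base pairs were higher in both Neonatal than in both E14.5 replicates in 836 domains (46.0%) and lower in 46 (2.53%). Over all merged autosomal peak regions these shares were 5.25% and 2.59%. The domains were picked where some list was wide, and the Neonatal lists gave the most of them, so these counts describe the set and are not evidence of a gain. From Neonatal to Adult, 403 domains (22.2%) were higher and 468 (25.7%) lower, beside 3.95% and 7.63% of all regions. This balance turned with single lists. Without Neonatal replicate 2 it was 720 (39.6%) higher and 563 (31.0%) lower, beside 6.24% and 21.1% of all regions. Without Adult replicate 1 it was 758 (41.7%) higher and 600 (33.0%) lower, beside 17.0% and 9.79%. From Adult to TAC, 24 (1.32%) were higher and 707 (38.9%) lower, beside 1.54% and 5.26%.

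Wide peaks chosen in one replicate and measured in the other, which had no part in the choice, gave the following. Of 334 regions wide in Neonatal but not E14.5 replicate 1, 306 were more covered at Neonatal than at E14.5 in replicate 2, with 77.0% against 39.2% of their bases in peaks. In the opposite direction 538 of 775 were more covered, at 60.9% against 47.0%. The regions wide at E14.5 but not Neonatal did not go the other way: 84 of 105 chosen in replicate 1, and 20 of 40 chosen in replicate 2, had more cover at Neonatal. For Neonatal and Adult both kinds held their direction in the replicate not used. Regions wide at Adult and not at Neonatal went from 53.8% to 65.3% and from 37.9% to 49.4% of bases, and those wide at Neonatal and not at Adult from 75.9% to 52.0% and from 59.2% to 42.3%. Thus cover at Neonatal was above that at E14.5 in most regions of 3 of these 4 choices, whereas between Neonatal and Adult some regions held more and others less cover at the later point. The lists also differ in total cover. Peaks held 3.68% and 3.93% of autosomal bases at E14.5, 4.01% and 4.89% at Neonatal, and 3.17% and 4.04% at Adult. The share of all regions that moved in the same list pairs is not given here, so these counts are not a result about the chosen regions alone.

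How far cover fell from Adult to TAC depended on the TAC replicate. Of 752 regions wide in Adult but not TAC replicate 2, 386 were less and 357 more covered at TAC in replicate 1, with 51.5% of bases in peaks at TAC against 52.3% at Adult. Of 278 chosen in replicate 1, 249 were less covered in replicate 2, at 24.8% against 65.3%, but of 186 regions wide at TAC and not at Adult in replicate 1, 171 were also less covered at TAC in replicate 2. Over the autosomes, peaks held 4.04% of bases in Adult replicate 2 and 2.71% in TAC replicate 2. In replicate 1 they held 3.17% at Adult and 3.12% at TAC. With TAC replicate 2 left out, 343 domains (18.9%) were above both Adult replicates and 780 (42.9%) below, beside 13.6% and 6.46% of all regions. Leaving out that one list raised the count above from 24 to 343, and the domains below still outnumbered those above.

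Named by the largest shifts without overlap between replicates, the domains that gained from E14.5 to Neonatal lay in Ttn, Gramd4 and Ago2. Ttn encodes titin, the spring of the sarcomere. Its domain at chr2:76733968-76754859 had 3032 and 2327 bp in peaks at E14.5, 20235 and 18467 at Neonatal, 11726 and 8180 at Adult, and 7731 and 1002 at TAC. The Neonatal values are above all the others, though the rule itself set them above E14.5 and Adult. This domain holds the whole of the 17106 bp exon at chr2:76736064-76753169, all of which lay in peaks in Neonatal replicate 1 and 15126 bp of which did in replicate 2. Ago2, which encodes the Argonaute protein that cuts targets of small RNAs, had 9692 and 4722 bp at E14.5, 15000 and 16882 at Neonatal, 5979 and 4706 at Adult, and 11332 and 3970 at TAC in an intronic domain at chr15:73162479-73179360. It was wide in both Neonatal lists, and both E14.5 and both Adult values lie below both Neonatal values. The rule set that order too, so it is no result. The largest falls from Neonatal to Adult lay in the Ago2 and Ttn domains and in Atp5c1, the gene of the gamma subunit of mitochondrial ATP synthase. Of these, the Atp5c1 domain alone had no peak in either Adult list: 2495 and 2121 bp at E14.5, 8767 and 6835 at Neonatal, 0 and 0 at Adult, and 501 and 0 at TAC.

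The largest gains from Neonatal to Adult lay in Plec, Dvl2 and Polrmt. Plec encodes plectin, which links intermediate filaments to the cell's junctions and Z-discs. Its domain at chr15:76172028-76192518 has 854 CpGs, the most of all domains, and 27 exons, with 6244 and 3048 bp in peaks at E14.5, 3654 and 8387 at Neonatal, 9512 and 20491 at Adult, and 12321 and 5454 at TAC. The Adult replicates are above both younger points but far from one another. The Dvl2 domain at chr11:70004220-70013579 also covers Acadvl, which encodes the very long chain acyl-CoA dehydrogenase of fatty acid oxidation. It had 1419 and 501 bp at E14.5, 812 and 4279 at Neonatal, 7826 and 9360 at Adult, and 5238 and 3041 at TAC. The Polrmt domain, across the gene of the mitochondrial RNA polymerase and the pacemaker channel gene Hcn2 at chr10:79731893-79741902, had 1930 and 0 bp, 2952 and 1665 bp, 6553 and 10010 bp, and 7005 and 2659 bp in the same order. In these domains both Adult values lie above all 4 younger values, though the rule itself set them above Neonatal.

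Losses from E14.5 to Neonatal and gains from Adult to TAC involved narrower domains. The largest losses lay in Arid3a, a gene of a DNA-binding protein, near Tmem209 and in 2900026A02Rik. The one near Tmem209 went from 3785 and 5747 bp to 2809 and 1828. The largest gains at TAC lay in Ptpn14, Smurf1 and near Slc25a33. Ptpn14, a tyrosine phosphatase gene, had 3164 and 1429 bp at E14.5, 1255 and 3546 at Neonatal, 0 and 0 at Adult, and 4702 and 2074 at TAC. Smurf1, the gene of a ubiquitin ligase of SMAD signalling, had 436 and 2594, 3564 and 3147, 0 and 0, and 4376 and 1008 in that order. The rule that chose these domains set both TAC replicates above Adult, so that order is no result. Some of the younger values reach the same range as TAC. The largest losses at TAC were in Tmem94, in Mtss1 domain 7 and in the one near Cibar2, which in TAC replicate 1 and 2 had 5793 and 0 bp against 7489 and 12296 at Adult.

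A domain lay on 1031 of 20021 autosomal protein-coding genes, 5.15%, and 1619 of the 1818 domains (89.1%) were on such a gene. Exonic bases were present in 766, 853 were on a gene but free of exonic bases, and 146 came within 1 kb of a TSS. Covered genes were long, with a median of 57.5 kb against 16.9 kb for all genes. In 5 groups of genes by length, with medians of 1.68, 7.43, 16.9, 35.4 and 108 kb, the share covered was 0.549%, 2.82%, 3.92%, 5.49% and 13.0%. Genes with 2 or more domains numbered 315, and 6 had 10 or more. Genes reached by wide peaks in both replicates were 24 at E14.5 (0.12% of all), 149 at Neonatal (0.744%), 111 at Adult (0.554%) and 0 at TAC (0%).

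The gene with most domain bases was Rbpms, which encodes an RNA-binding regulator of splicing. Of its 147 kb, 93.3 kb (63.4%) lay in 10 domains. Wide peaks held 23.1 and 14.4 kb of it at E14.5, 34.4 and 77.6 kb at Neonatal, 13.4 and 13.97 kb at Adult, and 6.81 and 0 kb at TAC. Both Neonatal values stand above all others. Peaks of any width covered 42.0% and 32.4% of the gene at E14.5, 58.4% and 70.6% at Neonatal, 42.7% and 39.6% at Adult, and 35.2% and 18.7% at TAC, so that width varied more than cover.

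Next came Cacna1c, the gene of the pore of the L-type calcium channel. It had 15 domains, the most of any gene, with 90.7 of its 609 kb in domains. Its wide peaks were 0 and 0 kb at E14.5, 41.4 and 64.5 kb at Neonatal, 0 and 8.81 kb at Adult, and 8.22 and 0 kb at TAC. Ttn had 70.4 of 279 kb in 9 domains, with 0 and 0 kb, 38.9 and 46.6 kb, 8.73 and 10.4 kb, and 10.5 and 0 kb in wide peaks in that order. In both genes the Neonatal libraries carry most of the width. These genes and Rbpms were ranked by domain bases, and the Neonatal lists gave the most wide peaks. Their Neonatal width is therefore a description and no result. Also among the 10 genes with most domain bases were Casz1, a zinc finger factor of heart development (77.4 kb), Mbnl2, a splicing regulator (74.2 kb), Mtss1 (73.6 kb), Trak1, a mitochondrial transport adapter (65.2 kb), Prdm16, a zinc finger regulator (60.7 kb), and Tspan9, a tetraspanin (57.6 kb).

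**Figure D4:**
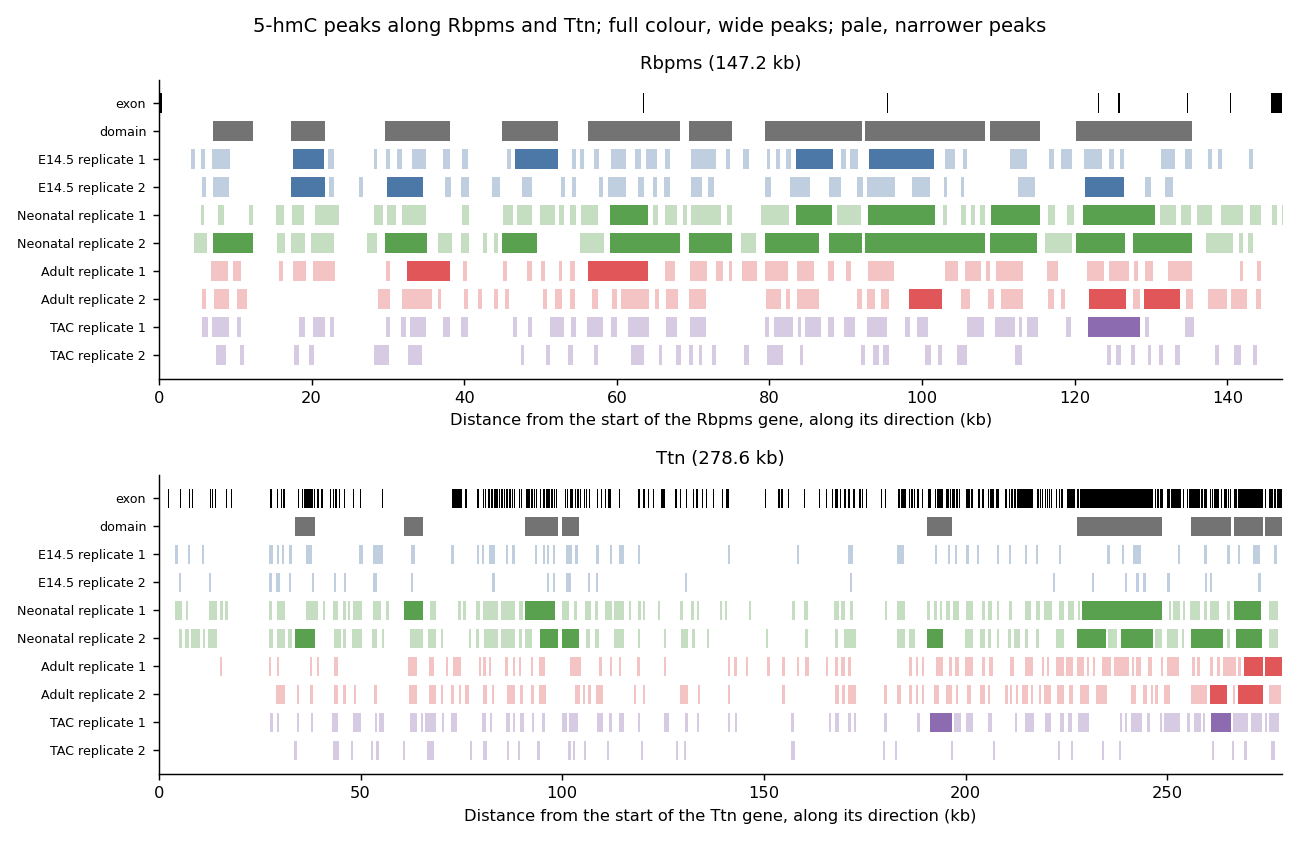
Peaks along Rbpms (147 kb) and Ttn (279 kb), by distance from the gene's start in kb (x axis), with tracks for exons, domains and the 8 libraries (y axis), full colour for peaks of 4 kb or more and pale for narrower ones. The Neonatal tracks hold most of the full-colour length, 34.4 and 77.6 kb in Rbpms and 38.9 and 46.6 kb in Ttn, and TAC replicate 2 holds none.

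The genes most covered by wide peaks of both replicates differed by point. At E14.5 they included Dnah12, Ski, Mtss1 and Tpcn1. At Neonatal they included Rbpms, Mical3, Ttn and Rbm20. At Adult they were Nfatc2, Ank, Epas1, Snx18 and Tex2, and at TAC there were none. Each gene was chosen for its width at its own point, so a high width there is no result. Rbm20, the splicing factor that acts on titin transcripts, had wide peaks in both Neonatal lists (27.1 and 44.3 kb) and 0 kb in the other 6. Epas1, which encodes the hypoxia-inducible factor HIF-2 alpha, had 0 kb in all 4 E14.5 and Neonatal lists, 18.4 and 13.5 kb at Adult, and 4.57 and 0 kb at TAC. Its cover by any peak was 15.1% and 13.9% at E14.5, 18.1% and 23.6% at Neonatal, 41.7% and 44.2% at Adult, and 33.0% and 16.5% at TAC. Nfatc2, a transcription factor gene of calcineurin signalling, was wide over 4.78 and 0 kb, 13.9 and 21.9 kb, 18.1 and 36.3 kb, and 6.84 and 0 kb in that order.

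Genes of the CMC's own machinery were under domains more often than the 5.15% of all genes. Of 36 sarcomere and Z-disc genes 13 were covered (36.1%, median length of the list 23.7 kb), among them Ttn, Myh7b, Tpm1, Actn2, Ldb3, Myh6, Nrap, Xirp1, Bag3, Flnc, Mybpc3 and Myl3. Of 28 genes of calcium cycling and ion channels 11 were covered (39.3%, 78.7 kb), with Cacna1c, the calcium pump gene Atp2a2 and the ryanodine receptor gene Ryr2 among them. Of 37 genes of fatty acid, glucose and mitochondrial metabolism 14 were covered (37.8%, 28.0 kb), among them Ppargc1b, Cpt1b, Acadm and Acadvl. Further shares were 11 of 34 for hypertrophic and receptor signalling, 8 of 33 for intercalated disc and costamere, 7 of 29 for cardiac transcription factors, 11 of 29 for Wnt and morphogenesis genes, and 7 of 28 for DNA and histone modifying enzymes. Of 26 cell cycle genes 1 was covered, E2f3. Many of these lists have a longer median gene than the 16.9 kb of all genes, and length was not taken out of the shares.

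Among lists of markers of other cell types, endothelial (16 genes), smooth muscle and pericyte (10), blood and immune (11), epicardial (7), neuronal (9) and liver (8) lists had 0 genes under a domain. With 5.15% of all genes covered, lists of this size would hold few or none at the background share. The fibroblast and extracellular matrix list had 2 of 22 (9.09%), Col4a1 and Col4a2. The endothelial and neuronal lists have medians of 53.3 and 52.1 kb, longer than that of the sarcomere list. These lists are short, and neither they nor the counts were put to a test.

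Within the cardiac lists the widths were highest at different points for different genes. Tpm1, the tropomyosin gene, was wide over 11.4 and 6.77 kb in the Neonatal lists and 0 kb elsewhere. Cpt1b, the gene of the muscle carnitine palmitoyltransferase, had 93.9% of its 9.46 kb in domains, and its peak cover was 20.4% and 10.6% at E14.5, 79.9% and 89.1% at Neonatal, 20.1% and 45.1% at Adult, and 27.9% and 5.30% at TAC. Ppargc1b, a co-activator gene of mitochondrial biogenesis, was wide over 13.8 and 17.7 kb at Neonatal and 0 kb elsewhere. In contrast, Acadvl went from 9.55% and 0% at E14.5 through 0% and 49.9% at Neonatal to 59.8% and 64.8% at Adult, with 23.0% and 22.8% at TAC. Both Adult values are above all others, though the Dvl2 domain that covers Acadvl was named for its rise from Neonatal to Adult. Dnmt3a, a DNA methyltransferase gene, was wide over 5.20 and 9.24 kb at Adult and 0 kb in the other 6 lists, and Tet3, a dioxygenase that makes 5-hmC, over 4.16 and 5.69 kb at Neonatal and over 0 and 4.22 kb at Adult.

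Of genes that the study names, Myl3 and Tet3 were under domains, while Gata4, Gata6, Mef2a, Mef2c, Myh7, Myl4, Ppara, Xirp2, Hif1a, Tet1, Tet2, Vim, Col1a2 and Tcf21 were not. The study names them for several reasons, some from these samples, so their count is not independent evidence. Myh6, the adult cardiac myosin heavy chain gene next to Myh7, had 7.88 of 24.7 kb in 2 domains, wide over 4.03 and 7.88 kb at Neonatal and 0 kb elsewhere. Peaks covered 43.2% and 32.4% of it at E14.5, 38.3% and 56.5% at Neonatal, 2.03% and 5.65% at Adult, and 9.65% and 8.54% at TAC. Myh7, the gene of the fetal isoform, had 37.9% and 24.3%, 32.8% and 21.2%, 2.09% and 8.37%, and 13.4% and 6.85% in that order, with no wide peak. Both genes thus had little cover at Adult and TAC, and the wide peaks of Myh6 were Neonatal. The coding sequences of these neighbours are alike, and reads that fit both may have been dropped for low mapping quality.

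**Figure D5:**
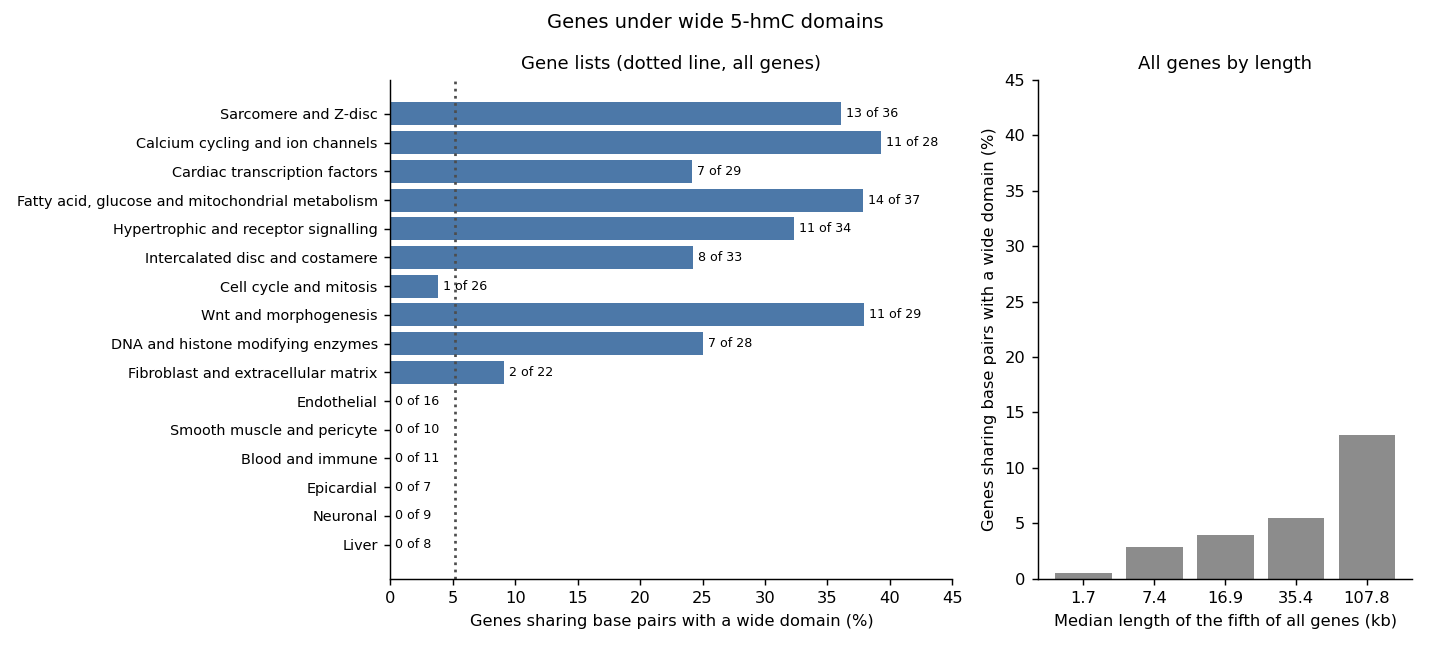
Left, percentage of each gene list's autosomal members that share base pairs with a domain (x axis), with counts beside the bars and the share of all genes, 5.15%, dotted; right, the same percentage (y axis) for all genes in 5 groups by length, labelled by median length in kb (x axis). Calcium cycling genes reach 39.3%, 6 lists of other cell types stand at 0, and the longest group of all genes reaches 13.0%.

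Some genes lay almost wholly under domains. More than 50% of the gene was in domains for 122 genes, 100 of them of 5 kb or longer. Chosen after the values were seen, those of at least 5 kb with the largest percentages were Lamb2, a laminin chain gene (100%), Calm3, a calmodulin gene (93.2%), Adcy6, an adenylyl cyclase gene (91.1%), Gigyf1 (91.0%), Cxxc1, a gene of a CpG-binding protein (90.5%), and Cpt1b as above. Ankrd23, a muscle ankyrin repeat gene with 87.7% in domains, had 74.4% and 69.4% in peaks at E14.5, 86.7% and 87.3% at Neonatal, 28.9% and 13.7% at Adult, and 36.0% and 0% at TAC. Its younger values are all above its older ones. Xirp1, whose product binds actin at the intercalated disc, went likewise from 41.1% and 13.0% and then 54.1% and 65% to 1.5% and 4.36% at Adult.

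Of 1136 autosomal miRNA genes 29 (2.55%) lay wholly inside a domain, beside 0.439% of the autosomal bases in domains and 5.15% of protein-coding genes touched by one. Those described here were chosen after the values were seen. Mir208a, the heart miRNA in an intron of Myh6, lies at chr14:54949060-54949142 in Myh6 domain 2. That domain had 2879 and 2823 bp in peaks at E14.5, 4028 and 4470 at Neonatal, 501 and 0 at Adult, and 1250 and 0 at TAC, and was wide in both Neonatal lists. Mirlet7b and Mirlet7c-2, members of the let-7 family known from developmental timing, lie together in near Ppara domain 4 on chr15, which went the other way. It had 427 and 0 bp at E14.5, 1062 and 2517 at Neonatal, 5261 and 5472 at Adult, and 5323 and 626 at TAC. Both Adult values are above all 4 younger ones. Mir34a, in near Gpr157 domain 2 on chr4, was under a wide peak in Adult replicate 2 alone, with 4278 bp against 501 in replicate 1.

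Domains lay in runs along the genome. Joined at gaps of 50 kb or less, a spacing chosen after the values were seen, 1091 of the 1818 were in runs of 2 or more and 727 stood alone. There were 6 runs of 10 or more. The longest had 20 domains over 346 kb at chr8:120229833-120575568, of which 4 were on curated transcripts of Gse1, a coiled-coil protein gene, and 16 lay between Cibar2 and Gse1. All 16 fall inside the wider gene record of Gse1, chr8:120228501-120581383, whose outer part rests on predicted transcripts. Wide peaks were in 2 and 0 of the 20 at E14.5, 8 and 12 at Neonatal, 8 and 14 at Adult, and 6 and 0 at TAC. A run of 10 in Zbtb16, a zinc finger repressor gene, at chr9:48687936-48824142 was of another kind, with 19.2% and 10.2% of its domain bases in peaks at E14.5, 33.0% and 16.3% at Neonatal, 72.9% and 72.1% at Adult, and 69.0% and 29.1% at TAC. Both Adult values and that of TAC replicate 1 are above every younger value. Wide peaks lay in 0 and 0 of these 10 at E14.5, 1 and 0 at Neonatal, 3 and 3 at Adult, and 4 and 0 at TAC. The run thus entered the set mostly through the Adult lists and TAC replicate 1, so that order is no result. Runs in Rbpms, Mbnl2 and Trak1 and one from Pitpnm2 to Hip1r made up the rest.

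Off curated protein-coding genes lay 199 domains, with a median of 40.7 kb to the nearest TSS. The whole RefSeq gene records, predicted transcripts included, took in 38 of these, GENCODE M21 genes took in 39, and 154 were off both. By chromosome the number per 100 Mb was highest on chr19, at 153, and lowest on chr3, at 37.1.

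A small class of domains had few CpGs. By a cut chosen after the values were seen, 26 domains were below the autosomal CpG density, and 14 of these (53.8%) were off genes, against 185 of the other 1792 (10.3%). Repeat-masked bases were 35.4% of them at the median, against 15.5%. They were wide in 2 or more lists in 15 of 26 cases (57.7%), against 33.2% of the others. At the extreme, the one near Prox1 had 6 CpGs in 4651 bp, with 85.6% of its bases repeat-masked. The class held 4 of the 8 wide domains of TAC replicate 2, in which 7 of the 8 were wide in another list too. One of these, in the axonemal dynein gene Dnah12, had 28 CpGs in 7091 bp, was wide in 6 lists, and was 1.57% repeat-masked. More domains of this class were wide in replicate 2 than in replicate 1 at each point, with 16 against 5 at E14.5, 16 against 7 at Neonatal, 8 against 2 at Adult and 4 against 2 at TAC. Of all domains, 126 against 147 were wide at E14.5, 842 against 374 at Neonatal, 740 against 340 at Adult and 8 against 246 at TAC. At Neonatal and Adult replicate 2 thus had more wide domains as a whole, and at Neonatal the class was a like share of them in both replicates. The other peaks of replicate 2 also held more repeat-masked bases at each point, with 31.5% against 23.9%, 29.1% against 24.5%, 21.4% against 20.3% and 27.1% against 20.8% in that order. How far the enrichment in such stretches reflects 5-hmC, which lies mostly at CpG, was not tested.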

How the data were processed

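5-hmC was measured by hMeDIP-seq in 8 CMC libraries, 2 per point. The authors aligned reads with BWA (0.7.4-r385 in the submitters' processing notes), dropped poorly mapped and, with Picard, duplicate reads, and called peaks against input per library with HOMER in histone mode. The deposited files are peak lists on mm10 whose score column is 1 in every row, so they give position and width with no height, read count or depth, and no interval could be put on a single value. All per-sample columns were used except that score.

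Peaks of 4000 bp or more on the 19 autosomes were taken from each list and joined, and a domain was called wide, narrower or without a peak in a list from an overlap of 1 bp. Genes were the spans of curated RefSeq transcripts (GRCm38.p6, annotation release 108), and GENCODE M21 was an alternative. For each list the wide and other peaks were compared in 7 features by an exact two-sided permutation test over the 256 sign patterns of the 8 differences. Points were compared by an exact one-sided permutation test over the 105 divisions into 4 pairs. Both were adjusted by the Benjamini-Hochberg method over the 7 features and tested on simulated data. Counts of domains and genes have no test.

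The domains, the 16 gene lists and the tests were chosen with earlier results of these data known. The named domains were the 10 widest, the 5 wide in most lists and the 3 largest rises and falls per step among those without overlap between replicates. The named genes were the 10 with most domain bases, the 5 with most bases in wide peaks of both replicates at each point, members of the lists and genes named by the study. Some items that meet these rules are not reported here. Other names are said to be chosen after the values were seen, as were the miRNA genes shown. Python 3.11.15, numpy 2.4.6, scipy 1.17.1, pandas 2.3.3, matplotlib 3.10.9 and bedtools 2.31.1 were used. Alternatives were other minimum widths, joining of neighbouring peaks, the 100 widest peaks of each list, the X chromosome, a minimum width for other peaks, the annotation, the replicate number as a block and leaving out each list.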

Additional observations from a re-analysis of the deposited data

Results flagged for a closer look

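Wide peaks on the X chromosome were outside the comparisons above, which used autosomes. There were 12 and 10 in the E14.5 lists and 7 and 6 in the Neonatal lists, against 0 and 1 at Adult and 0 and 0 at TAC. All X peaks moved with them, with 2037 and 2414 at E14.5, 2265 and 2367 at Neonatal, 449 and 396 at Adult, and 475 and 277 at TAC. The X wide peaks joined into 14 domains, of which 3 were on a gene, the widest being one of 20533 bp in Dmd, the dystrophin gene. No list had a wide peak on Y. The cause was not tested.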

How the results depend on the processing

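The peak lists hold no depth, so nothing can be said of how many wide peaks more reads would have given, and an exact two-sided permutation test between a pair of points has 0.333 as its smallest p. GC, repeat-masked, gene body and TSS differences kept their direction and stayed past the threshold in all 12 alternatives. Against other peaks of 1000 bp or more the TSS difference was -1.11 points, and the sizes of the others are given above. The CpG difference was 0.239 (adjusted p = 0.102, exact permutation test) at 5000 bp or more and 0.105 (adjusted p = 0.264) against other peaks of 1000 bp or more. The downstream difference was -9.66 (adjusted p = 0.102, exact permutation test) and -4.22 (adjusted p = 0.0875) under the same settings. The exon difference was 2.81 (adjusted p = 0.00911, exact permutation test) at 3000 bp or more and between 1.86 and 3.20 on leaving out each list in turn, the highest without TAC replicate 2, and the causes were not tested. At 3000 bp the lists had 525, 450, 1026, 1992, 952, 1887, 785 and 40 wide peaks, at 5000 bp 44, 43, 161, 417, 138, 343, 94 and 2, and with peaks 1000 bp or less apart joined 821, 670, 1493, 2438, 1356, 2606, 1185 and 134. The widths of 3000 and 5000 bp gave 4446 and 864 domains, 2119 and 682 with a peak in every list (9 of the 1818 where 50% must be covered), and 1973 and 562 genes. Genes wide in both replicates numbered 80 and 7 at E14.5, 349 and 70 at Neonatal and 313 and 38 at Adult, and 12 at TAC with 3000 bp. Those wide in either replicate numbered 174, 620, 623 and 201. The gap in cover by the other replicate was 14.2 against other peaks of 1000 bp or more. For the domains with changed cover, leaving out each list in turn, an alternative added after seeing the data, gave 994 to 1353 domains up and 115 to 333 down from E14.5 to Neonatal, 499 to 758 up and 563 to 858 down from Neonatal to Adult, and 44 to 343 up and 780 to 1344 down from Adult to TAC. The highest of these were, in that order, without Neonatal replicate 1 and 2, Adult replicate 1, Neonatal replicate 1, TAC replicate 2 and TAC replicate 1. For all merged regions the same settings gave 7.76% to 19.8% up and 4.24% to 14.9% down from E14.5 to Neonatal. They gave 5.49% to 17.0% up and 9.79% to 26.1% down from Neonatal to Adult. From Adult to TAC they gave 2.45% to 17.4% up and 6.46% to 20.6% down. Same-numbered replicates did not deviate together at every pair of points (correlations from -0.00612 to 0.233, over 0.1 at 4 of the 6 pairs), so the numbers were not taken to pair the samples. With the replicate number as a block, the test over points gave adjusted p = 0.729 for 6 features and 0.833 for repeat-masked bases in the exact permutation test, with no change of call.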
